A study of Aspergillus niger with 24 samples.

Results

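The genes described here peaked in the same 2 of 8 groups of Aspergillus niger libraries, TLL day 4 and wild type (WT) day 3. A gene was kept where its group means in TLL day 4 and in WT day 3 were both at least 10 TPM (a measure of transcript level per gene length, relative to the library's total) and both at least 3 times the highest of the other 6 group means, with a mean over all 24 libraries under 1000 TPM. Of 11846 genes in the table, 37 met this rule, and 2 more met all of it but the limit at 1000 TPM. The members were thus selected on the measured levels of all 8 groups, so the height of both peaks over the other groups is given as a description and was not tested.

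The groups with the TLL strain are TLL day 1, day 2, day 3 and day 4, from CICC2629 hyphae that expressed the lipase TLL. The WT groups are WT day 1, day 2, day 3 and day 4, from hyphae of CICC2629 with a wild type genotype. All were grown at 28 °C on potato dextrose agar, and each of the 8 groups had 3 libraries. The labels name neither the promoter of the lipase nor the number of transformants, and the series gives its times as 0, 24, 48 and 72 hours without tying an hour to a labelled day. Whether replicates are separate cultures is not stated in the labels, and p-values therefore cover the spread between these libraries alone, which may be technical.

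A. niger is a filamentous fungus that grows by extending and branching hyphae and is used to make secreted enzymes. On agar a colony takes up sugars from the medium, and older hyphae can form aerial structures that carry asexual spores called conidia. Many fungal genes for nutrient uptake, secondary metabolites and sporulation are known to be switched on in limited windows of colony growth. The files do not pair their gene IDs with names or products, and none of the IDs matched the reference table, so no member is given a name or a role and the hyphal label was not checked against markers. In RNA from whole mycelium, more cells of a type and more RNA per cell cannot be told apart.

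Because TPM is scaled to a fixed library total, the number of reads behind a value is unknown. Each library summed to between 999999 and 1000000 TPM, and 7918 to 8935 genes reached 1 TPM in a library. Replicates correlated across genes at 0.983 to 0.992 in all groups of days 2 to 4, on log2(TPM + 1). At day 1 the lowest correlations were 0.920 in TLL and 0.923 in WT, and TLL day 1 replicate 3 and WT day 1 replicate 1 lay apart from their groups. In the deposited table the 6 peak libraries stand in columns 1 to 6, ahead of the 18 others, which follow by strain and day. No label says what the column order stands for, and its part in the shared peak was not tested.

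Together the 37 genes took up about 1% of all transcripts in the TLL peak and less in the WT peak, and far less elsewhere. Their summed level was 11312, 10434 and 9206 TPM in TLL day 4 replicates 1, 2 and 3, which is 0.921% to 1.13% of a library. In WT day 3 it was 6554, 6412 and 6733 TPM. In the 18 other libraries it ran from 413 to 1953 TPM. The 6 peak libraries stood apart, which the choice of members favours, and within them every TLL day 4 library lay above every WT day 3 library. The highest of the 18 others was TLL day 1 replicate 3, at 1953 TPM, where replicates 1 and 2 of that group held 413 and 508 TPM. The next were WT day 2 replicate 1 at 1535 TPM and TLL day 2 replicate 3 at 1510 TPM. After its peak, WT held 620 to 739 TPM on day 4. A sum is weighted to abundant genes. NRRL3_01899 alone averaged 2778 TPM in TLL day 4, against 1206 TPM in WT day 3. NRRL3_00504 averaged 729 TPM in TLL day 4, against 17.3 TPM in WT day 3. The mean was higher in TLL day 4 in 25 members and higher in WT day 3 in 12.

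**Figure D1:**
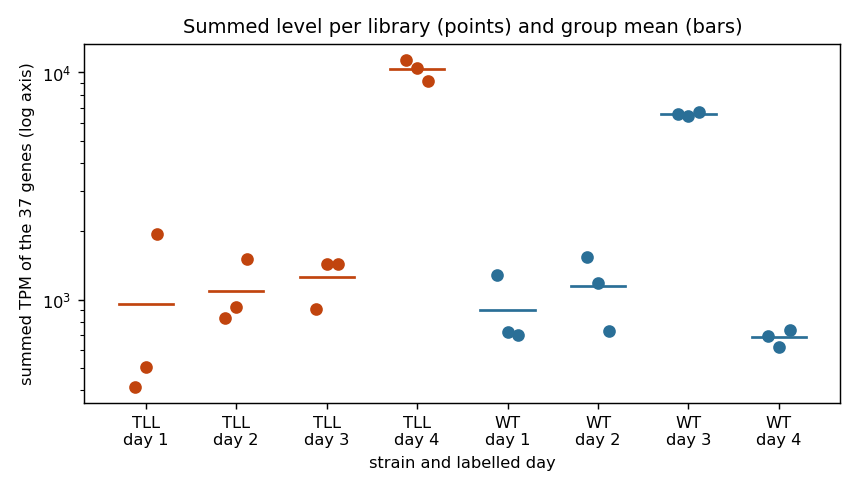
Summed TPM of the 37 genes in each library, on a log axis, by strain and labelled day, with points for libraries and bars for group means. The TLL day 4 libraries lie at 9206 to 11312 TPM and the WT day 3 libraries at 6412 to 6733 TPM, and no other library exceeds 1953 TPM.

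The members were mostly genes of middle abundance. Averaged over the 6 peak libraries they held 12.7 to 1992 TPM, with a median of 79.2 TPM. Below 50 TPM lay 11 members, 16 had 50 to 200 TPM and 10 had at least 200 TPM. The median of the members' group means was 86.6 TPM in TLL day 4, against 66.4 TPM in WT day 3. In the other groups that median was 12.2 TPM in TLL day 1, 9.30 in TLL day 2, 11.6 in TLL day 3, 9.99 in WT day 1, 11.6 in WT day 2 and 9.00 in WT day 4. Most members were therefore expressed at a base level outside the peak, and few were near silent there. The highest of the 6 other group means was under 5 TPM in 8 members, between 5 and 50 TPM in 22 and at least 50 TPM in 7.

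Most members stood only modestly past the 3-fold limit. The lower of both peak means was 3.01 to 25.8 times the highest other group mean, with a median of 3.73. The ratio was under 4 in 23 members and at least 5 in 6. Just inside the limit lay NRRL3_03873, with a lower peak mean of 61.8 TPM and a highest other mean of 20.5 TPM (ratio 3.01), and NRRL3_04154, with 19.7 and 6.52 TPM (ratio 3.03). Just outside it lay NRRL3_02829, with 11.2 and 3.87 TPM (ratio 2.90), and NRRL3_01429, with 11.5 and 3.97 TPM (ratio 2.88). A limit of 2-fold would take in 97 genes. In all 37 members every one of the 6 peak libraries lay above every one of the 18 others, which the choice of members favours and which supports nothing by itself.

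Few genes peaked by this rule in both strains on labelled day 3 or on labelled day 4. The same rule with TLL day 3 and WT day 3 as the high groups gave 1 gene, with TLL day 4 and WT day 4 it gave 1 gene, and with TLL day 3 and WT day 4 it gave 0. Of the 7191 genes with a group mean of at least 10 TPM and an overall mean under 1000 TPM, 829 (11.5%) had TLL day 4 and WT day 3 as their highest groups. These counts are descriptions and were not tested.

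**Figure D2:**
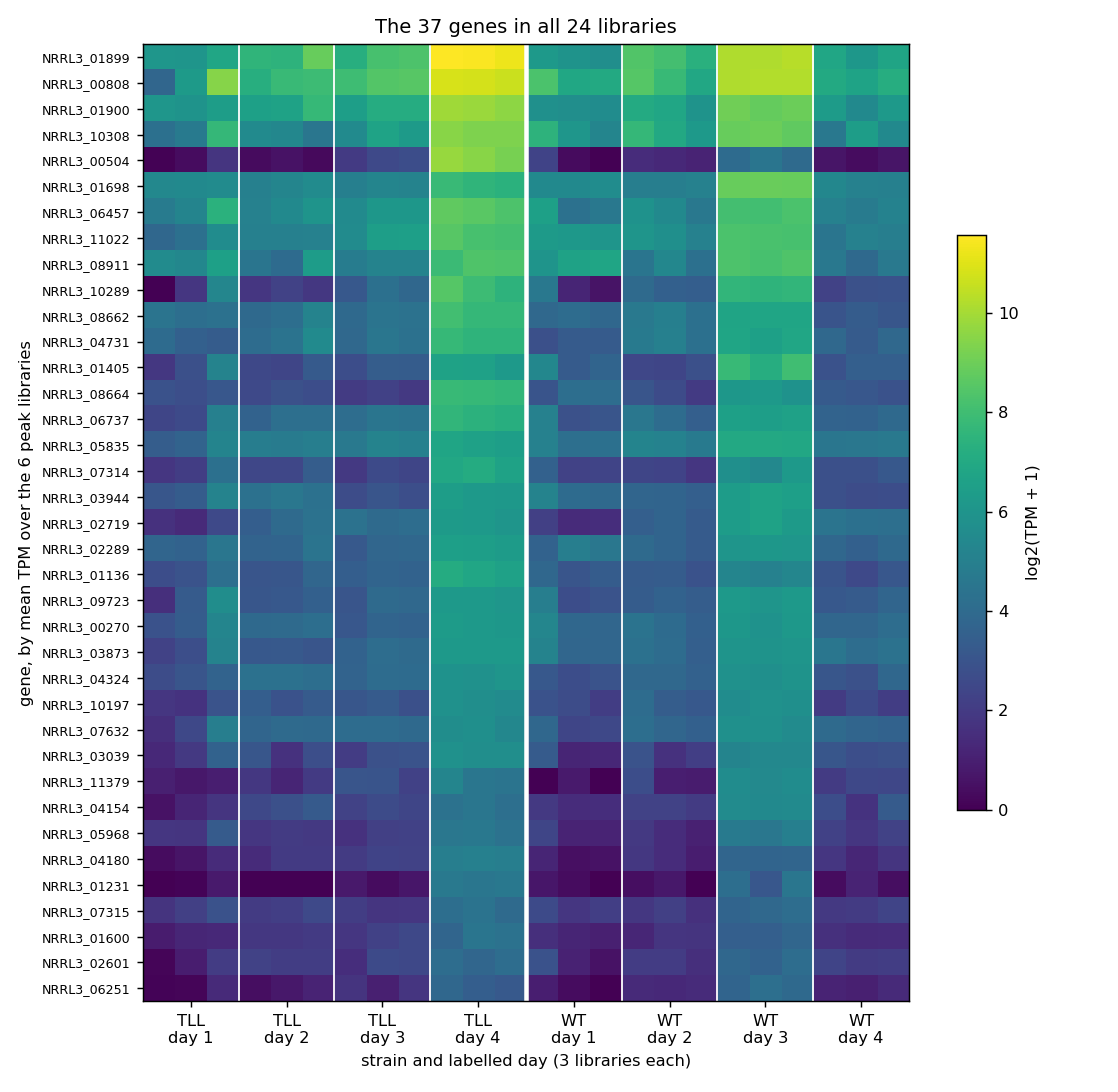
Level of the 37 genes as log2(TPM + 1) (colour) in the 24 libraries (columns, 3 for each strain and labelled day), with genes ordered by their mean over the 6 peak libraries. The TLL day 4 and WT day 3 columns are brighter than the other groups in every row, and TLL day 1 replicate 3 is brighter than replicates 1 and 2 in many rows.

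The most abundant members were NRRL3_01899 and NRRL3_00808. NRRL3_01899 held 3014, 2853 and 2468 TPM in the TLL day 4 libraries, against 1162, 1161 and 1293 TPM in the WT day 3 libraries. It was already among the more abundant genes before the peak, at 174 to 474 TPM in TLL day 2, 151 to 324 TPM in TLL day 3, against 161 to 337 TPM in WT day 2. NRRL3_00808 held 1859, 1809 and 1591 TPM in TLL day 4, against 1156, 1194 and 1186 TPM in WT day 3. Both genes were higher in each TLL day 4 library than in any WT day 3 library. In the test between the peaks described below, NRRL3_01899 was called higher in TLL day 4 (log2 difference 1.20, SE 0.36, limma adjusted p = 0.00931). NRRL3_00808 was not called there (log2 difference 0.57, SE 0.81, limma adjusted p = 0.587). NRRL3_00808 reached 707 TPM in TLL day 1 replicate 3, against 13.1 and 77.9 TPM in replicates 1 and 2, so its day 1 level in TLL rests on a single library.

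NRRL3_01231 and NRRL3_10289 had the sharpest peaks. NRRL3_01231 held 24.8, 22.3 and 23.5 TPM in TLL day 4, against 17.0, 7.75 and 22.5 TPM in WT day 3. No other library exceeded 1.19 TPM, and the gene was listed at 0 in 6 libraries, including all of TLL day 2. NRRL3_10289 held 367, 245 and 177 TPM in TLL day 4, against 197, 185 and 192 TPM in WT day 3. Its libraries elsewhere lay between 0 and 38.3 TPM, where the highest values were those of TLL day 1 replicate 3 (38.3 TPM) and WT day 1 replicate 1 (23.7 TPM). The other day 1 libraries held it at 2.56 TPM or less. The TLL day 4 and WT day 3 libraries overlapped in both genes, and those of NRRL3_01231 varied widely in WT day 3.

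The step into the peak was steep in both strains. In TLL the day 4 mean was 3.05 to 163 times the day 3 mean, with a median of 7.02, and at least 5 times in 28 members. In WT the day 3 mean was 3.47 to 46.3 times the day 2 mean, with a median of 5.95, and at least 5 times in 23 members. The WT series also shows the way down, as the TLL peak is on its last labelled day. The WT day 3 mean was 3.18 to 35.0 times the WT day 4 mean, with a median of 8.21. All of these ratios were fixed from below by the rule.

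**Figure D3:**
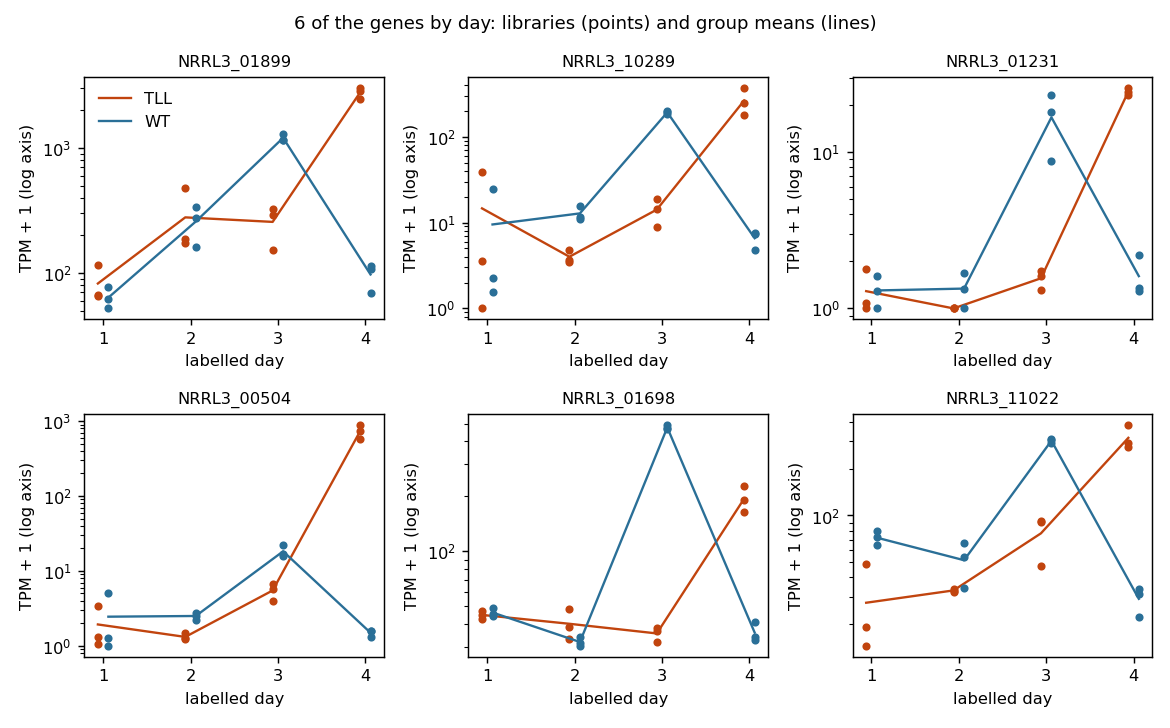
TPM + 1 on log axes by labelled day for 6 of the genes, with points for libraries and lines for group means in TLL and WT. Each gene is highest on day 4 in TLL and on day 3 in WT, and NRRL3_00504 reaches 729 TPM in the TLL peak and 17.3 TPM in the WT peak.

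TLL day 4 and WT day 3 were then set against each other. The rule used both levels, and not the difference between them, in asking that a gene be high in both groups. The means of both peaks were within 1.5 times of each other in 22 of 37 members. The TLL day 4 mean was the higher in 25 members and the WT day 3 mean in 12, and the median ratio of TLL day 4 to WT day 3 was 1.21. By limma on log2(TPM + 1) fitted to all genes and libraries, with a Benjamini-Hochberg adjusted p under 0.05 as a call, 9 members were higher and 2 lower in TLL day 4. Of the members 24.3% were thus called higher and 5.41% lower, and of all 9558 genes tested 31.2% and 16.9%. As the members were chosen for being high in both groups, nothing is read from these shares. After median-of-ratios scaling, which moved the median difference of all genes to -0.01 in place of 0.19, 6 members were higher and 4 lower, where 22.8% of all genes were higher and 24.2% lower.

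NRRL3_00504 differed most between the peaks. It held 874, 730 and 582 TPM in TLL day 4, against 15.6, 21.3 and 14.9 TPM in WT day 3. The groups were far apart, with a log2 difference of 5.32 (SE 0.45, limma adjusted p = 1.76e-08). In WT day 4 it held 0.57, 0.32 and 0.59 TPM, and in the 3 libraries of WT day 2 it held 1.75, 1.52 and 1.23 TPM, so the WT peak is small in level though it passed the rule. NRRL3_01136 held 139, 114 and 97.1 TPM in TLL day 4, against 37.0, 32.7 and 38.3 TPM in WT day 3 (log2 difference 1.66, SE 0.30, limma adjusted p = 0.000184). It did not overlap between the peaks, and its other libraries lay at 4.78 to 17.65 TPM.

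NRRL3_01698 and NRRL3_04154 were the 2 members called lower in TLL day 4. NRRL3_01698 held 226, 190 and 164 TPM in TLL day 4, against 472, 488 and 469 TPM in WT day 3 (log2 difference -1.31, SE 0.14, limma adjusted p = 3.62e-07). Off the peak it was steady, between 29.3 and 47.9 TPM in all 18 libraries, day 1 included. NRRL3_04154 held 19.4, 22.2 and 17.7 TPM in TLL day 4, against 46.6, 43.5 and 44.8 TPM in WT day 3 (log2 difference -1.15, SE 0.31, limma adjusted p = 0.00529). Neither gene overlapped between the peaks. The 26 members that were not called had log2 differences of -1.15 to 1.12, which does not show that their peaks were equal.

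**Figure D4:**
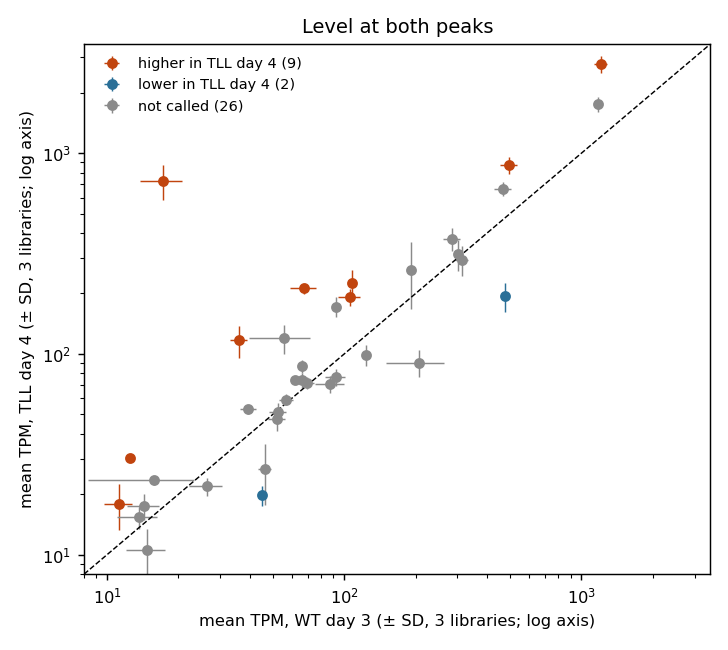
Mean TPM of each of the 37 genes in TLL day 4 (vertical) and WT day 3 (horizontal), both on log axes with SD over 3 libraries, and a dashed line of equal level. NRRL3_00504 lies farthest from the line, and some of the 26 genes not called lie as far from it as some of the 9 called higher and 2 called lower in TLL day 4.

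The number of calls between the peaks depended on which libraries set the spread. The members varied much between day 1 replicates, with a median coefficient of variation of 80.5% in TLL day 1 and 57.4% in WT day 1, against 11.3% in TLL day 4 and 8.14% in WT day 3. A limma fit on the 6 peak libraries alone called 17 members higher and 5 lower in TLL day 4, which is 59.5% of members against 64.4% of all genes. Without TLL day 1 replicate 3 and WT day 1 replicate 1, the counts were 12 higher and 4 lower, 43.2% of members against 61.9% of all genes.

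Off the peak, TLL day 3 was set against WT day 4, the groups of the same late days that the rule had only capped. More members were higher in TLL day 3 than lower, but few passed the test. The log2 difference was above 0 in 24 members and below 0 in 13, with a median of 0.36 beside 0.05 over all genes. Of the 37, 5 were called higher and 1 lower in TLL day 3 (limma, adjusted p under 0.05), or 13.5% and 2.70%, against 6.56% and 5.25% of all genes. A member could pass the filter on low values through its peak alone, but 36 had at least 1 TPM in at least 1 of these groups.

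NRRL3_11022 and NRRL3_01899 had the largest calls without overlap at 5 TPM or more. NRRL3_11022 held 46.7, 89.5 and 91.2 TPM in TLL day 3, against 21.4, 32.8 and 30.2 TPM in WT day 4 (log2 difference 1.36, SE 0.33, limma adjusted p = 0.0113). NRRL3_01899 held 151, 292 and 324 TPM in TLL day 3, against 114, 68.2 and 107 TPM in WT day 4 (log2 difference 1.36, SE 0.36, limma adjusted p = 0.0169). TLL day 3 replicate 1 was the lowest of its group for both genes. NRRL3_08664 went the other way, with 2.99, 3.64 and 2.77 TPM in TLL day 3, against 8.66, 7.82 and 6.59 TPM in WT day 4 (log2 difference -1.07, SE 0.26, limma adjusted p = 0.0107). Several of these calls hung on single libraries. Of the single libraries left out, only TLL day 3 replicate 3 cost NRRL3_08664 its call (limma adjusted p = 0.0533). Without TLL day 3 replicate 3 only 1 of the 6 was left, 2.70% of members against 5.77% of all genes. None of the 3 genes named passed in that fit. Without TLL day 3 replicate 2 there were 3, or 8.11% of members against 5.96% of all genes. Of the genes named, neither NRRL3_11022 nor NRRL3_01899 passed there. The main fit called 16.2% of members and 11.8% of all genes, so calls fell over all genes as well. NRRL3_11022 was also lost without WT day 4 replicate 1, and NRRL3_01899 without WT day 4 replicate 2. Without both day 1 libraries that lay apart 14 members were higher and 1 lower, 40.5% of members against 26.8% of all genes. A fit on the 6 libraries alone gave 11 and 1, or 32.4% of members against 20.4% of all genes.

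On the first 2 days few members were called between the strains, and the counts depended on which libraries set the spread. At day 1, 0 members were called higher and 1 lower in TLL (limma, 3 at an unadjusted p under 0.05), where 1.76% of all genes were higher and 5.56% lower. The member was NRRL3_11022, with 13.6, 18.1 and 47.9 TPM in TLL day 1, against 78.0, 71.7 and 63.6 TPM in WT day 1 (log2 difference -1.59, SE 0.33, limma adjusted p = 0.00707). Each TLL library lay below each WT library, the reverse of its order off the peak between TLL day 3 and WT day 4. The day 1 count rested on TLL day 1 replicate 3. Without it 11 members were lower in TLL and none higher, 29.7% of members against 23.1% of all genes. Without TLL day 1 replicate 2 no member passed, where 2.17% of all genes did. Without WT day 1 replicate 1 there were 1 higher and 2 lower, 8.11% of members against 13.5% of all genes. Without both of these libraries, TLL day 1 replicate 3 and WT day 1 replicate 1, 0 were higher and 9 lower. That is 24.3% of members against 25.9% of all genes. Fitted to the 6 day 1 libraries alone, limma called 0 members and 0 of all genes.

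TLL day 1 replicate 3 held the highest value of the 18 libraries off the peak in 13 of 37 members, and WT day 1 replicate 1 in 5. The median over members was 18.7 TPM in TLL day 1 replicate 3 and 3.87 and 5.87 TPM in replicates 1 and 2. In WT day 1 it was 13.4 TPM in replicate 1 and 6.40 and 7.33 TPM in replicates 2 and 3. The day 1 libraries that lay apart over all genes were thus also the ones in which the members were highest on that day. For NRRL3_09723, chosen after its values were seen, TLL day 1 held 1.95, 9.10 and 49.1 TPM and WT day 1 held 30.2, 5.69 and 6.72 TPM. Leaving out TLL day 1 replicate 3 would raise the number of members to 43.

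At day 2, 0 members were called between TLL and WT by limma, with 3 at an unadjusted p under 0.05, where 8.22% of all genes were called higher and 1.49% lower in TLL. The median log2 difference of the members was 0.14, beside 0.19 over all genes. The shares of all genes depended on scaling. After median-of-ratios scaling 0 members were called, where 3.31% of all genes were higher and 2.44% lower. Quantile normalization also gave 0 members, where 3.79% of all genes were higher and 2.96% lower. The members' median was -0.02 and -0.10 under these settings. Fitted to the 6 day 2 libraries alone, limma called 1 member higher and 3 lower in TLL, 10.8% of members against 9.71% of all genes. Without both day 1 libraries that lay apart the counts were 1 and 5, or 16.2% of members against 29.5% of all genes. Without TLL day 2 replicate 1, 1 member was higher, or 2.70% against 13.5% of all genes.

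Between day 2 and day 1 the members did not move as a block. The day 2 mean was above the day 1 mean in both strains in 16 members, below it in both in 13, and in opposite directions in 8. These are directions of means, not tested. NRRL3_02719 was one of the first kind, with 10.1, 15.1 and 19.8 TPM in TLL day 2, against 2.14, 1.63 and 4.86 TPM in TLL day 1. In WT it held 10.3, 12.2 and 8.93 TPM on day 2, against 3.57, 1.66 and 1.88 TPM on day 1. The libraries of day 2 and day 1 did not overlap in either strain. NRRL3_08664 was one of the second kind, with a mean of 5.54 TPM in TLL day 2, against 6.64 TPM in TLL day 1. Its WT mean was 5.16 TPM on day 2, against 13.4 TPM on day 1.

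TLL day 3, the last labelled day before the TLL peak, was set against TLL day 2. The rule capped both groups, so genes that were already high by then were left out in advance. Against TLL day 2, 2 members were called higher and 1 lower in TLL day 3 (limma, adjusted p under 0.05), or 5.41% and 2.70%, where 4.69% of all genes were higher and 13.2% lower. The share called higher is near that of all genes. The median log2 difference was 0.11 in the members and -0.16 over all genes, and quantile normalization gave 5 higher and 1 lower members, where 7.99% of all genes were higher and 8.51% lower. The members called higher were NRRL3_00504 and NRRL3_11022. NRRL3_00504 held 2.92, 4.81 and 5.71 TPM in TLL day 3, against 0.26, 0.46 and 0.22 TPM in TLL day 2 (log2 difference 2.03, SE 0.45, limma adjusted p = 0.00319), still far below its day 4 level. It is named as the only other gene called higher, since its mean was under the 5 TPM set for named genes.

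NRRL3_11022 held 46.7, 89.5 and 91.2 TPM in TLL day 3, against 31.4, 31.9 and 32.7 TPM in TLL day 2 (log2 difference 1.16, SE 0.33, limma adjusted p = 0.0201). The call was lost without either TLL day 3 replicate 2 or replicate 3, and without TLL day 2 replicate 1 or replicate 2, with limma adjusted p up to 0.0947 over all alternatives. NRRL3_03944 held 5.41, 7.39 and 5.84 TPM in TLL day 3, against 18.7, 23.0 and 18.7 TPM in TLL day 2 (log2 difference -1.55, SE 0.37, limma adjusted p = 0.00535). It fell just before its TLL peak of 84.8, 73.8 and 71.0 TPM. The fit on these 6 libraries alone gave 6 higher and 2 lower members, 21.6% of members against 27.4% of all genes. Leaving out both day 1 libraries that lay apart gave 6 and 3, or 24.3% against 33.2% of all genes.

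WT day 4, after the WT peak, was set against WT day 2, both capped by the rule. Of the members, 1 member was called higher and 4 lower in WT day 4 (limma, adjusted p under 0.05), or 2.70% and 10.8%, where 8.07% of all genes were higher and 7.77% lower. The share of members called in either direction, 13.5%, is close to the 15.8% of all genes, so it is no result about the members. The median log2 difference was -0.08 in the members and -0.02 over all genes, and the WT day 4 mean was below the WT day 2 mean in 22 of 37. NRRL3_08662 held 6.94, 9.21 and 7.40 TPM in WT day 4, against 24.8, 30.4 and 18.0 TPM in WT day 2 (log2 difference -1.50, SE 0.24, limma adjusted p = 0.000146). NRRL3_01899 held 114, 68.2 and 107 TPM in WT day 4, against 337, 273 and 161 TPM in WT day 2 (log2 difference -1.38, SE 0.36, limma adjusted p = 0.0108). Both genes lay lower in every WT day 4 library than in any WT day 2 library. The call of NRRL3_01899 was lost without WT day 2 replicate 1 (limma adjusted p = 0.0590) and without WT day 4 replicate 2 (limma adjusted p = 0.0621, the highest over all alternatives).

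NRRL3_02719 was the member called higher after the peak. It held 20.9, 18.3 and 17.9 TPM in WT day 4, against 10.3, 12.2 and 8.93 TPM in WT day 2 (log2 difference 0.81, SE 0.26, limma adjusted p = 0.0405). Its call was lost without any 1 of these 6 libraries, with limma adjusted p up to 0.157 over all alternatives. The 5 calls became 3 without WT day 2 replicate 1 or replicate 2 and 2 without WT day 4 replicate 2. These counts stand without the share of all genes, so nothing is read from them about the members. In a fit on the 6 libraries alone the 5 calls became 10, or 27.0% of members against 20.9% of all genes. Without both day 1 libraries that lay apart they became 15, of which 11 were lower in WT day 4, or 40.5% of members against 31.4% of all genes.

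**Figure D5:**
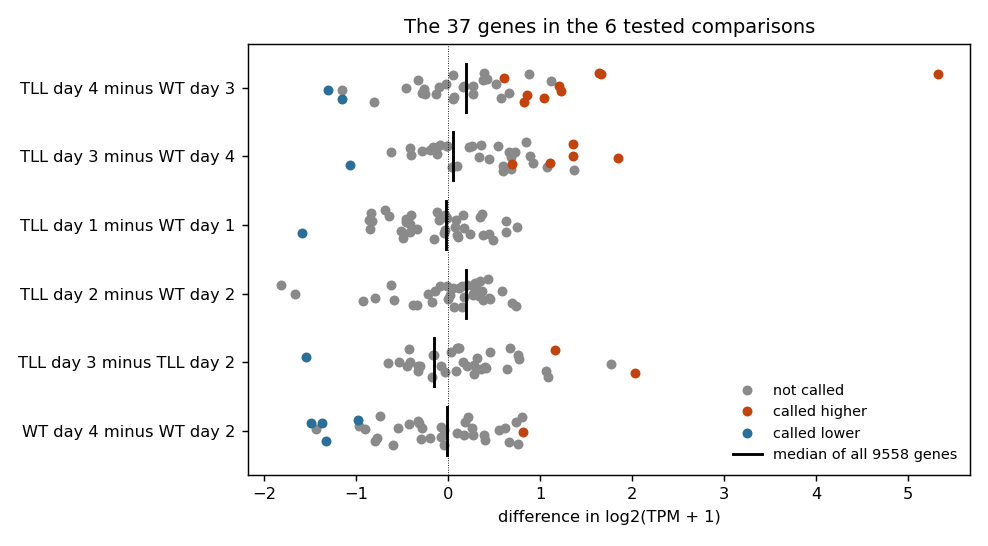
Difference in log2(TPM + 1) of each of the 37 genes in the 6 tested comparisons, with colours for limma calls and a black tick at the median of all 9558 genes. Calls number 11 between the peaks, or 29.7% of members against 48.1% of all genes. They number 0 to 6 in the other comparisons, or 0% to 16.2% of members, against 7.31% to 17.9% of all genes. NRRL3_00504 lies alone at 5.32 in TLL day 4 minus WT day 3.

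In the order of ID numbers, 31 of the 37 members stood alone and 6 formed close pairs. The files give no coordinates, so ID numbers are used as labels and not as positions. NRRL3_01899 and NRRL3_01900 are consecutive, as are NRRL3_07314 and NRRL3_07315, and NRRL3_08662 and NRRL3_08664 are 2 apart. NRRL3_01900 held 949, 899 and 780 TPM in TLL day 4, against 534, 454 and 493 TPM in WT day 3, and was likewise higher in each TLL peak library. The IDs on both sides of this pair did not share the peak. NRRL3_01898 averaged 29.2 ± 0.942 TPM in TLL day 4, against 17.0 ± 1.06 TPM in WT day 3, and NRRL3_01901 35.4 ± 1.66 TPM in TLL day 4, against 47.1 ± 3.33 TPM in WT day 3 (n = 3 each, errors are SD), both under their highest other group mean.

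NRRL3_07314 held 119, 139 and 100 TPM in TLL day 4, against 53.8, 40.5 and 72.2 TPM in WT day 3. NRRL3_07315 was less abundant, at 17.1, 20.1 and 15.0 TPM in TLL day 4, against 12.3, 14.0 and 16.7 TPM in WT day 3. Its peaks overlapped, while those of NRRL3_07314 did not. Neither gene was called between the peaks (limma adjusted p = 0.0552 for NRRL3_07314 and 0.420 for NRRL3_07315). In the pair with a gap, NRRL3_08662 held 266, 205 and 203 TPM in TLL day 4, against 105, 109 and 110 TPM in WT day 3. NRRL3_08664 held 223, 214 and 199 TPM in TLL day 4, against 67.6, 75.8 and 59.0 TPM in WT day 3. Both were higher in each TLL peak library, while NRRL3_08663 between them averaged 0.34 ± 0.227 TPM in TLL day 4, against 0.493 ± 0.136 TPM in WT day 3 (n = 3 each, errors are SD). Off the peak this pair moved apart, since NRRL3_08662 averaged 18.1 TPM in TLL day 3, against 7.85 TPM in WT day 4, and NRRL3_08664 3.13 TPM in TLL day 3, against 7.69 TPM in WT day 4.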

How the data were processed

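The authors deposited TPM values per gene for 24 libraries of RNA from hyphae. HISAT2, StringTie and Cufflinks stand in the submitters' processing notes without roles, and the deposited table's name refers to RSEM. The genome build was not given in the sources used here, nor was the annotation. Each column name equals a library name in the labels, and 0 columns belonged to no sample. Of the file's IDs, 0 matched a reference table of 14404 genes.

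Members were found by the stated rule on arithmetic group means. TPM were transformed to log2(TPM + 1), which understates changes of genes near 1 TPM. The 9558 genes that reached 1 TPM in 3 or more libraries were tested, and all 37 members were among them. A model with 8 group means and 16 residual degrees of freedom was fitted in limma 3.58.1 (R 4.3.3) with a mean-variance trend. Tests were two-sided, adjusted by Benjamini-Hochberg over all genes kept. The model was tested on simulated data with a single spread per gene, shared by all 8 groups. The real day 1 libraries varied more than the others, so the simulation cannot show how the model performs there. Genes named from a comparison are the up to 2 largest calls each way with a mean of 5 TPM or more in either group and no overlap between libraries. Others named are the most abundant, the sharpest, those nearest the 3-fold limit and those in runs of IDs. Any other ID was chosen after its values were seen, as was leaving out both day 1 libraries that lay apart. The members and lists were chosen with earlier results of these data known, and no gene list could be counted without gene names. Figures were drawn with matplotlib 3.10.9.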

Additional observations from a re-analysis of the deposited data

How the results depend on the processing

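Pseudocounts of 0.1 and 5 TPM, no filter, a filter at 5 TPM, both scalings and a replicate block left most counts of called members within 1.5 times. Exceptions were TLL day 1 minus WT day 1 and TLL day 3 minus TLL day 2. The first had 2 calls at a pseudocount of 5 TPM or with median-of-ratios scaling, in place of 1. Of all genes, these settings called 7.59% and 9.86% there, in place of 7.31%. The second had 6 calls under quantile normalization in place of 3, with 16.5% of all genes in place of 17.9%. Fits on the 6 libraries compared called 22 members in TLL day 4 minus WT day 3, 12 in TLL day 3 minus WT day 4, 0 in TLL day 1 minus WT day 1, 4 in TLL day 2 minus WT day 2, 8 in TLL day 3 minus TLL day 2 and 10 in WT day 4 minus WT day 2. Of all genes these fits called 64.4%, 20.4%, 0%, 9.71%, 27.4% and 20.9%, in the same order. Leaving out both day 1 libraries that lay apart gave 15, 9, 6, 9 and 15 in the last 5 of these comparisons. The 9 calls in TLL day 1 minus WT day 1 were 24.3% of members, against 25.9% of all genes. Shares for the others stand with each comparison above. Leaving out single libraries gave 8 to 11, 1 to 7, 0 to 11, 0 to 1, 2 to 3 and 2 to 5 calls in the same order. In the first 5 comparisons the calls over all genes then ran from 39.7% to 41.7%, 5.77% to 10.3%, 2.17% to 23.1%, 2.51% to 13.5% and 11.8% to 15.8%. The cause was not tested. The 37 members became 97 at 2-fold and 6 at 5-fold, 44 with group medians and 43 with median-of-ratios scaling, and 31 to 43 without a single library, of which 22 were kept in every case. Of 195 values of named members under alternatives, 172 kept their call, 23 lost it and 0 changed sign.

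With the replicate number as a block, the 11, 6, 1, 0, 3 and 5 calls became 11, 6, 1, 0, 3 and 4, as NRRL3_02719 was lost. Of all genes, the fit with this block called 48.3%, 12.1%, 7.32%, 9.87%, 18.1% and 15.8%, in the same order. Same-numbered libraries deviated together at -0.64 to 0.44, in 0 of 6 comparisons at over 0.1 in every pair, and in 0 comparisons did every library correlate best with its own number. The numbers were not treated as pairs, because no label says that they mark a shared culture or batch. Depth is unknown in TPM.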
